A study of Homo sapiens with 9 samples.

Results

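The nuclear-encoded subunits of respiratory complexes I to IV and of ATP synthase (complex V) were examined in DU145 cells with and without *FZD6* knockdown. Members were chosen by gene symbol: the *NDUFA*, *NDUFB*, *NDUFC*, *NDUFS* and *NDUFV* genes with a number, the *UQCR* genes, the *COX4* to *COX8* genes, the *ATP5F*, *ATP5M* and *ATP5P* genes, the 4 *SDH* genes and *CYC1*. Of the symbols in RefSeq, 212 matched, and 87 of these were among the 27860 genes of the expression tables. Of the 87, 86 code for proteins and 1, *UQCRBP1*, is a transcribed pseudogene. A gene was tested when its mean over the 9 libraries was at least 1 FPKM (fragments scaled to transcript length and to library size), which 80 of the 87 members passed. These were 36 genes of complex I, 4 of complex II, 11 of complex III, 11 of complex IV and 18 of complex V. The level filter uses all libraries together, and the 80 tested genes are not all members.

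DU145 is an established human prostate cancer line. The 9 libraries were 3 of cells carrying a scrambled shRNA (scramble, the control), 3 of cells with *FZD6* shRNA1 and 3 of cells with *FZD6* shRNA2, a pair of hairpins against the Wnt receptor FZD6. All 3 groups are derivatives of the same line and carry an shRNA, delivered per the methods with a lentiviral vector. The labels call the libraries of a group triplicates without saying whether they came from separate cultures, so the p-values measure the spread between these libraries, which may be technical. *FZD6* itself was at 20.9, 20.5 and 20.0 FPKM with scramble, at 9.47, 10.2 and 9.80 with shRNA1 and at 7.84, 8.79 and 7.69 with shRNA2. Every knockdown library was below every scramble library (log2 fold change −1.12, standard error 0.085, limma adjusted p = 0.00049, two-sided exact permutation p = 0.0119, the smallest that 6 libraries against 3 allow). The epithelial keratin *KRT7* lay between 959.6 and 1095 FPKM in all 9 libraries. Of 7 epithelial markers 6 were tested, and with knockdown *EPCAM* (0.26, limma adjusted p = 0.0173) and *KRT19* (0.15, limma adjusted p = 0.00793) rose and *CDH1* fell (−0.28, limma adjusted p = 0.0105). The part of these in the results below was not tested. The summed endothelial markers did not exceed 0.0943 FPKM. The 3 leukocyte markers, 2 of them listed at 0 throughout, summed to at most 0.00517 FPKM with scramble and to 0.0183 to 1.14 with knockdown. The tables hold no counts, and from the confidence bounds that Cufflinks gives, a depth of 32.7 to 41.0 M (mega) fragments per library was estimated.

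The respiratory chain passes electrons from NADH (through complex I) and from succinate (through complex II, which is also an enzyme of the citric acid cycle) to ubiquinone, on to cytochrome c through complex III, and to oxygen through complex IV. Complexes I, III and IV pump protons across the inner mitochondrial membrane, and ATP synthase uses the return of these protons to make ATP. A few subunits are encoded by the mitochondrial genome, which were not analysed here, and all others by the nuclear genes described below. These nuclear genes lie on many chromosomes, and their promoters are known to share sites for NRF1, for the ETS factor GABP and for YY1.

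The starts of the members are described first, with the letters they share. RefSeq (GRCh38.p14, the build of the tables apart from patches) gave 77 promoter windows, from 250 bases before to 50 bases after a start, for 64 of the 80 tested members. Searched on both strands, the NRF1 motif (GCGCA followed directly by its reverse complement) was found in 4 of the 77 windows (5.19%, against 1.24% of all 35116 promoter windows). The ETS motif CCGGAAG was found in 22 (28.6%, against 10.3% of all), and the YY1 motif AAGATGGCG in 10 (13%, against 1.75% of all). Among windows of protein-coding genes the shares were 1.5%, 12.8% and 2.41%. A match is a description of letters, not a measured binding site. For each complex, the bases just before the start are printed, 5′ to 3′, for the member with the most matches in that stretch, with matches in capitals. They are *NDUFS3* at chr11:47578949-47579073 on the plus strand, *SDHD* at chr11:112086748-112086872 on the plus strand, *UQCR11* at chr19:1605463-1605587 on the minus strand, *COX5B* at chr2:97645937-97646061 on the plus strand and *ATP5PF* at chr21:25735055-25735179 on the minus strand, from an annotated start of each. In complex IV, *COX5B* was level with *COX6A1*, *COX6B1* and *COX8A* at 1 match and was taken as the first by name.
NDUFS3: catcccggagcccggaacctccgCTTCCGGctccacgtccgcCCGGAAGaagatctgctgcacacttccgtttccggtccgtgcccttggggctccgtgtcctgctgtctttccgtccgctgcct
SDHD: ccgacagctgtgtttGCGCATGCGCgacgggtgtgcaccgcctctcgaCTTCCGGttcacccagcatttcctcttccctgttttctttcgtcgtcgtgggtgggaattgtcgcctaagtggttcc
UQCR11: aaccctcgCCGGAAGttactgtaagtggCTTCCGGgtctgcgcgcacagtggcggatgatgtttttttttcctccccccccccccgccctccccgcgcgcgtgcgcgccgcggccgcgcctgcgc
COX5B: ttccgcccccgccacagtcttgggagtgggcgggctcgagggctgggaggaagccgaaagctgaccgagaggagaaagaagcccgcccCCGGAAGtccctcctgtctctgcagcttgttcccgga
ATP5PF: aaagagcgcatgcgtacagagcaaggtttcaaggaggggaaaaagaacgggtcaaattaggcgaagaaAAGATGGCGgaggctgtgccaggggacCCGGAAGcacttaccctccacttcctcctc
*SDHD* holds an NRF1 match followed by an ETS match, *NDUFS3* and *UQCR11* each hold a pair of ETS matches on opposite strands, *COX5B* holds a single ETS match, and *ATP5PF* holds a YY1 and an ETS match. These members were shown for their matches and not for their change in expression.

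In scramble cells the tested members ranged from 5.55 FPKM (*NDUFA9*, an accessory subunit of complex I) to 636 FPKM (*ATP5F1B*, the catalytic β subunit of the ATP synthase head), and 45 of the 80 were above 100 FPKM. Their median was 113 FPKM, against 9.82 FPKM for all 12509 tested genes. By complex, the median level was 97.6 FPKM for complex I, 78.5 for complex II, 83.1 for complex III, 119 for complex IV and 190.1 for complex V. The median coefficient of variation among the 3 scramble libraries was 1.07% to 3.20% in the 5 complexes, so neighbours in the order of levels that are a few percent apart do not differ beyond their spread. FPKM divides by the length of the annotated transcript, and among the 77 members with a length the level fell with length (Spearman's rho −0.625 across genes, a description only). The lowest members include genes annotated with long 3′ ends, such as *NDUFA9* (8356 bases) and *UQCRB* (8459 bases), so levels between members are comparable only as far as the annotated lengths hold.

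**Figure D1:**
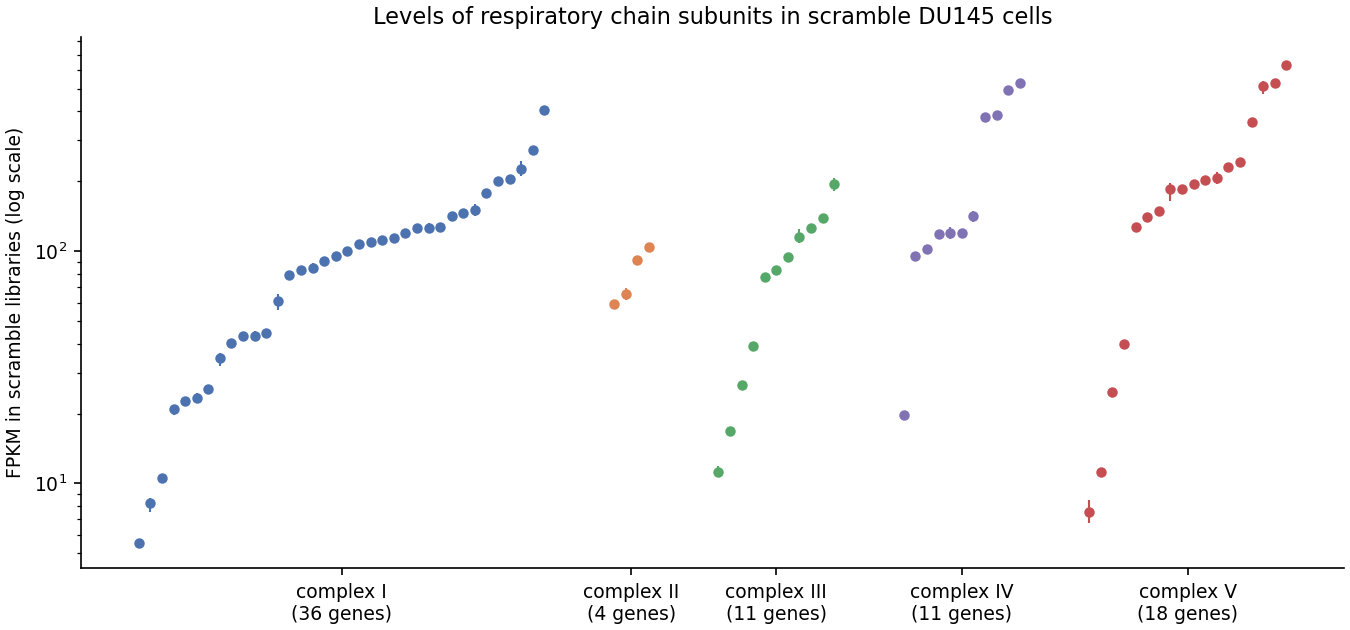
Mean FPKM of each tested member in the 3 scramble libraries (log axis), ordered within complexes I to V, with bars from the lowest to the highest library. Levels spanned 5.55 to 636 FPKM, and 14 of the 18 complex V genes were above 100 FPKM.

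Of the gene pairs and trios that code for alternative forms of a subunit, the form known from most tissues was the one expressed. *COX4I1*, the usual form of COX4, was at 382, 395 and 378 FPKM with scramble, while the lung form *COX4I2* was listed at 0 in all 9 libraries. *COX6A1* stood at 492 FPKM and the muscle form *COX6A2* was listed at 0. *COX6B1* stood at 379.6 FPKM and the testis form *COX6B2* at 0.591. *COX7B* stood at 19.8 FPKM with *COX7B2* listed at 0, and *COX8A* at 527 with *COX8C* at 0.109. *COX7A2* and *COX7A2L*, the latter a factor of supercomplex assembly, were at 119 and 102 FPKM, and the muscle form *COX7A1* at 0.353. The 3 genes for the c-ring of ATP synthase, which code for the same mature protein, were all expressed, *ATP5MC2* at 512, *ATP5MC1* at 242 and *ATP5MC3* at 24.8 FPKM. *UQCRH* (194 FPKM) and its near-identical intronless copy *UQCRHL* (116 FPKM) share reads, and how the counting split them is uncertain. Besides the 6 silent or nearly silent *COX* forms, the only member below the filter was the readthrough gene *ATP5MF-PTCD1*.

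The first comparison asked how expression in the 6 knockdown libraries differed from that in the 3 scramble libraries. The members were slightly and broadly higher with *FZD6* knockdown. By limma on log2(FPKM + 1), 41 of the 80 rose at an adjusted p under 0.05 and 0 fell, whereas 13.5% of all tested genes were called higher and 7.1% lower. The median log2 fold change of the members was 0.15 (10.9% higher), against 0.03 for all tested genes, and 79 of the 80 values were above 0. With quantile normalization 19 members rose and 1 fell, and the split of all called genes went from 1690 higher and 888 lower to 1047 and 1058. The changes were small, from −0.04 for *SDHA* to 0.27 for *ATP5PO*. The study asked for at least 1.2-fold and a p below 0.01 without adjustment, which *ATP5PO* met as the only member, 1 of 80, against 2.89% of all genes. In 44 members every knockdown library was above every scramble library, which held for 16.4% of all tested genes. Summed over the 80 members, FPKM were 11510 ± 242 (SD, n = 3) with scramble, 12830 ± 45.1 with shRNA1 and 12810 ± 632 with shRNA2. In bulk RNA, a higher share of these transcripts per cell and a change in the number of cells that carry them cannot be told apart.

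**Figure D2:**
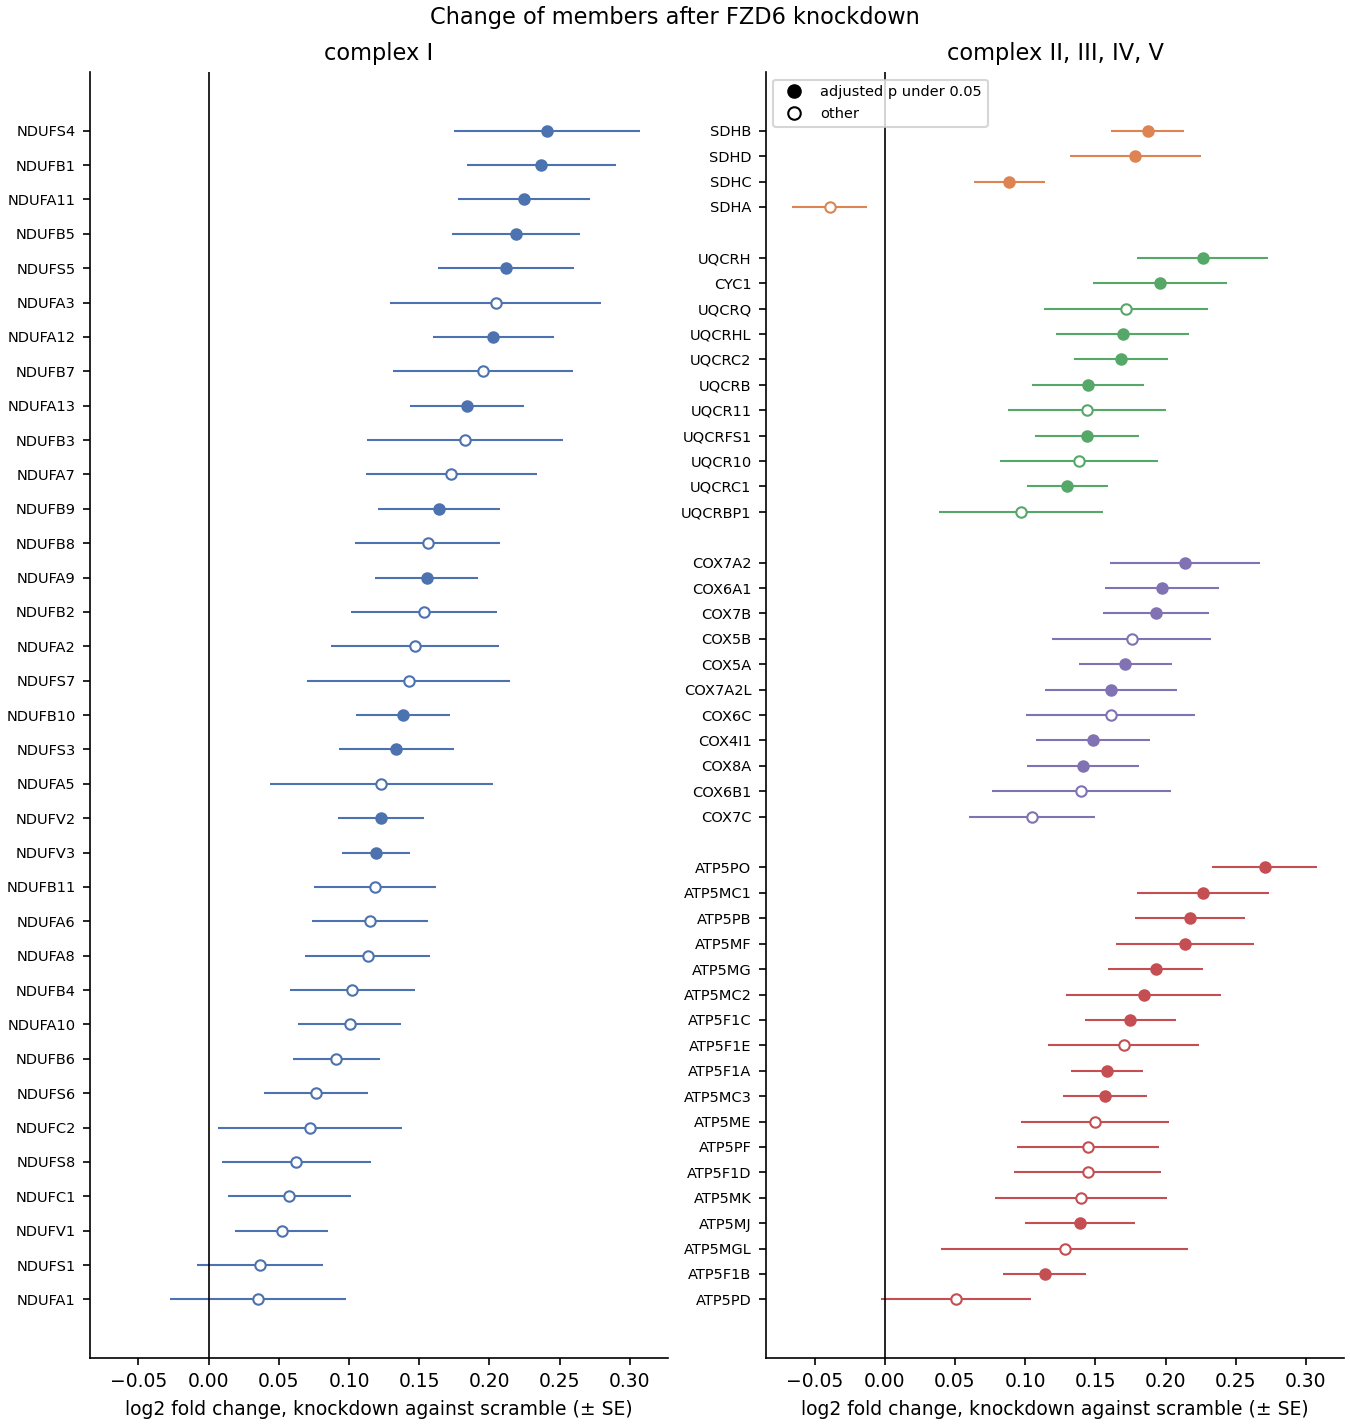
Log2 fold change of 79 tested members in the 6 knockdown libraries against the 3 scramble libraries, with its standard error, by complex. Filled points have a limma adjusted p under 0.05 (41), and all points but that of *SDHA* lie to the right of 0.

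The counts of called members changed with a correction for transcript length and with the libraries used. Both are given here because they bear on every count. Across 11967 tested genes with a length, shorter transcripts had higher fold changes (Spearman's rho −0.456 across genes, which are not independent replicates). Among the 77 members with a length, rho was −0.236. The members were short, with a median of 799 bases against 2855. Within length classes, the members' median was 0.16 below 800 bases (other genes 0.12), 0.16 from 800 to 1200 bases (other genes 0.12), 0.14 from 1200 to 2000 bases (other genes 0.08) and 0.14 from 2000 bases (other genes −0.00). The share called higher was 46.2% of members and 16.1% of other genes in the shortest class, and 53.8% of 13 members and 8.82% of other genes in the longest. When the length trend was taken out library by library, 7 of 77 members rose (*ATP5MC3*, *ATP5PB*, *ATP5PO*, *COX7B*, *NDUFA9*, *NDUFV3* and *UQCRB*, of which *NDUFV3* was named after its values were seen) and 0 fell. In that fit 6.15% of all genes were called higher and 5.71% lower, the members' median was 0.04, and 59 of 77 values were above 0. With lengths as in GENCODE, *COX7B* (446 bases, against 2444 here) and *NDUFV3* (1681 bases, against 5687 here) lost their calls. Both genes were in the longest class above. The part of length in the rise was not otherwise tested.

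**Figure D3:**
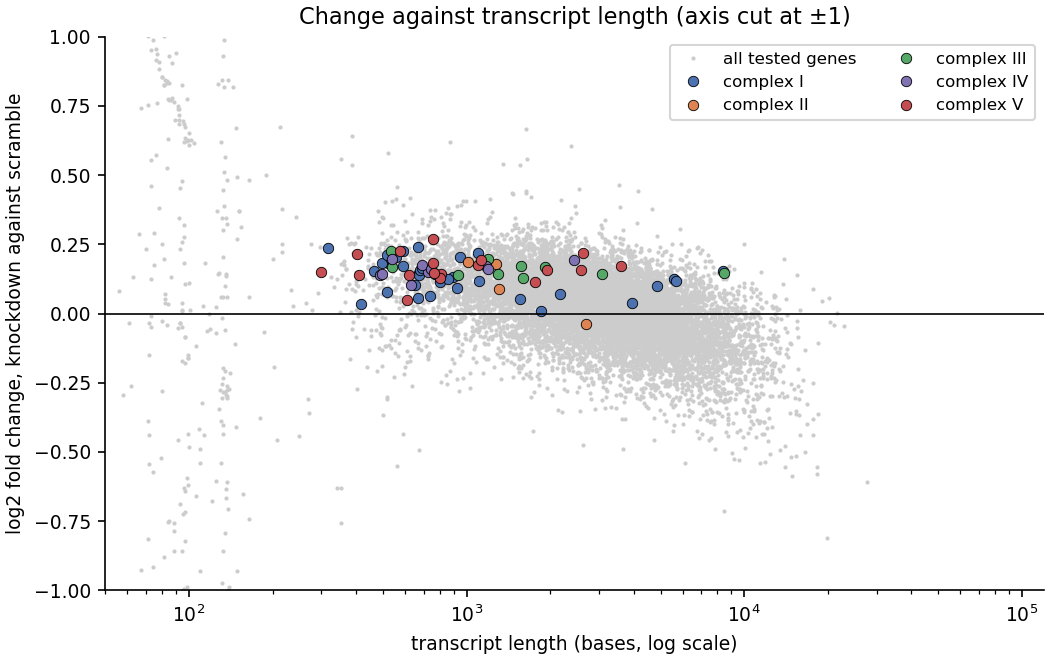
Log2 fold change, knockdown against scramble, plotted against transcript length (log axis) for 11967 genes in grey and 77 members in colour; 209 genes lie outside the axes. Members lie between −0.04 and 0.27. Fold changes fell with length over all genes (Spearman's rho −0.456) and among the members (−0.236).

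By library, the members' median log2 difference from the scramble mean was −0.01, −0.02 and 0.03 in the scramble libraries, 0.15, 0.15 and 0.15 with shRNA1, and 0.15, 0.09 and 0.22 with shRNA2. All 6 knockdown libraries were thus above all 3 scramble libraries, and shRNA2 replicates 2 and 3 marked the lower and upper end. Each gene's log2 value was also centred on its mean over the libraries and correlated by rank with transcript length across genes, which gave 0.339, 0.537 and 0.36 for the scramble libraries, −0.244, −0.212 and −0.32 with shRNA1, and −0.218, 0.227 and −0.447 with shRNA2. The library with the smallest rise, shRNA2 replicate 2, was also the only knockdown library with a positive value. Of the 36 members whose groups overlapped, shRNA2 replicate 2 was at or below the highest scramble library in 24, against 4 to 12 for the other knockdown libraries. This count was not made over all tested genes and is not read as a result about the members. Without shRNA2 replicate 2, 57 members rose. Without scramble replicate 2 the count was 10, without scramble replicate 1 it was 13 and without scramble replicate 3 it was 26, and 0 fell in each. Calls over all genes moved in the same fits, from 1690 higher to 2027 without shRNA2 replicate 2 and to 634, 753 and 960 without scramble replicates 2, 1 and 3. The members' median stayed between 0.14 and 0.17 in all of these.

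**Figure D4:**
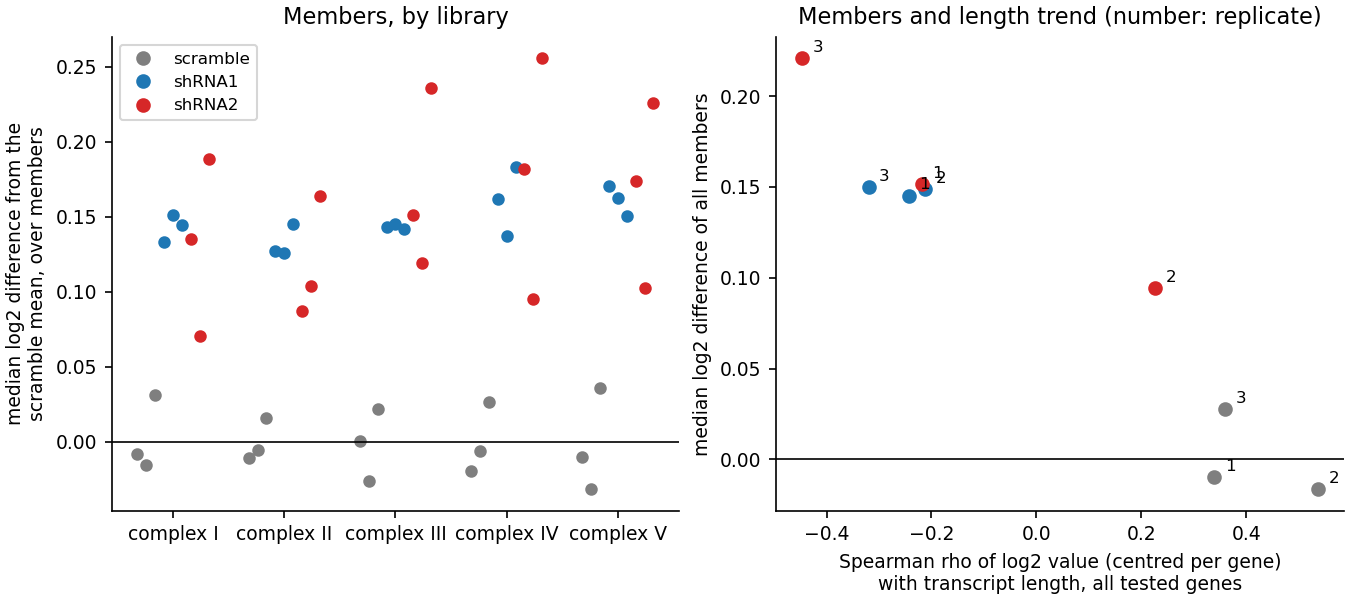
Left, median log2 difference from the scramble mean over the members of each complex, 1 point per library. Right, the same over all 80 members against each library's rank correlation of gene-centred log2 values with transcript length, with replicate numbers beside the points; the scramble libraries lie between −0.02 and 0.03 and the knockdown libraries between 0.09 and 0.22.

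In complex I, 13 of 36 genes rose (0.12 to 0.24 on the log2 scale) and 0 fell, beside 13.5% of all tested genes called higher. All 36 values were above 0. The largest rises were in accessory subunits. *NDUFS4*, which is needed for a stable complex and is mutated in Leigh syndrome (chr5:53560639-53683338), was at 31.9, 36.4 and 35.5 FPKM with scramble, at 47.2, 39.7 and 40.3 with shRNA1 and at 38.5, 40.5 and 40.5 with shRNA2. All knockdown libraries were higher than all scramble libraries, and 1 of them, shRNA1 replicate 1, stood well above the rest (log2 fold change 0.24 ± 0.066 SE, limma adjusted p = 0.0347). *NDUFB1* was at 211, 224 and 245 FPKM with scramble, at 266, 259 and 261 with shRNA1 and at 257, 271 and 289 with shRNA2, and again the groups did not overlap (0.24 ± 0.053, limma adjusted p = 0.0167). *NDUFA11* (0.22, limma adjusted p = 0.0131) and *NDUFB5* (0.22, limma adjusted p = 0.0127), both membrane arm subunits, also rose. Among the 7 core subunits, which carry the flavin, the iron-sulfur clusters or the quinone site, 2 rose and the median was 0.06, while 11 of 29 accessory genes rose with a median of 0.15. Core genes had a median length of 894 bases and accessory genes of 672, and the difference in their changes was not tested. The abundant *NDUFS6*, at 404 FPKM with scramble, had a log2 fold change of 0.08 (limma adjusted p = 0.178). After removal of the length trend, 0 of 7 core and 2 of 28 accessory genes rose, with medians of −0.0035 and 0.0348. In that fit 6.15% of all genes were called higher.

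Complex II has 4 subunits, all nuclear, of which 3 rose and 1 was not called, beside 13.5% of all tested genes called higher. *SDHB*, the iron-sulfur subunit (chr1:17018722-17054032), was at 91.7, 90.1 and 91.8 FPKM with scramble, at 101, 104 and 105 with shRNA1 and at 103, 103 and 108 with shRNA2. The groups were clearly apart, and *SDHB* had the smallest adjusted p of all members (0.19 ± 0.026 SE, limma adjusted p = 0.00322). *SDHD* (0.18, limma adjusted p = 0.0294) and *SDHC* (0.09, limma adjusted p = 0.0399), the membrane anchors, also rose. *SDHA*, the flavoprotein subunit that oxidizes succinate (chr5:218320-268746), was at 103, 104 and 105 FPKM with scramble, at 106, 101 and 101 with shRNA1 and at 102, 98.6 and 99.6 with shRNA2. Its groups overlapped (−0.04 ± 0.027 SE, 95% interval −0.10 to 0.02, limma adjusted p = 0.332). The ratio of *SDHB* to *SDHA* within a library was 0.865 to 0.89 with scramble, 0.96 to 1.04 with shRNA1 and 1.01 to 1.08 with shRNA2. This ratio was chosen after the values were seen, and is given as a description with no test. *SDHA* has the longest transcript of the 4, 2693 bases against 1011 to 1307, and with the length trend removed none of the 4 was called, with *SDHC* at −0.01 and *SDHA* at −0.08. With lengths as in GENCODE, however, *SDHB* (0.08, limma adjusted p = 0.0467) and *SDHC* (0.26, limma adjusted p = 0.028) were called after the same correction. The GENCODE length of *SDHC* was 12449 bases, against 1307 at the deposited ends, so its call rested on that length. With quantile normalization *SDHA* was called lower.

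In complex III, 7 of 11 genes rose (0.13 to 0.23) and 0 fell, beside 13.5% of all tested genes called higher. *UQCRH*, the hinge protein (chr1:46303698-46316776), was at 195, 182 and 206 FPKM with scramble, at 214, 232 and 229 with shRNA1 and at 232, 218 and 236 with shRNA2 (0.23 ± 0.047 SE, limma adjusted p = 0.0124). Its copy *UQCRHL* (chr1:15807374-15807649) rose as well (0.17, limma adjusted p = 0.037), and since reads of the pair are shared these are not separate observations. *CYC1*, which codes for cytochrome c1 and hands electrons to cytochrome c, was at 142, 136 and 141 FPKM with scramble, at 162, 164 and 168 with shRNA1 and at 155, 145 and 165 with shRNA2 (0.20 ± 0.048 SE, limma adjusted p = 0.023). *UQCRC2*, a core protein, was 0.17 higher (limma adjusted p = 0.011). *UQCRB*, the lowest of the complex at 11.2 FPKM, was 0.14 higher (limma adjusted p = 0.0342) and 0.25 higher with the length trend removed (limma adjusted p = 0.00938). The 4 genes that were not called lay between 0.10 and 0.17, *UQCRBP1* among them. After removal of the length trend, *UQCRB* alone of the 10 genes with a length was called, beside 6.15% of all genes called higher.

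In complex IV, 7 of 11 genes rose (0.14 to 0.21) and 0 fell, beside 13.5% of all tested genes called higher. *COX7A2* (chr6:75237675-75250298) was at 112, 118 and 127 FPKM with scramble, at 140.4, 143 and 133 with shRNA1 and at 140.0, 127 and 146 with shRNA2. Its groups met at 127 FPKM, where shRNA2 replicate 2 was level with scramble replicate 3 (0.21 ± 0.054 SE, limma adjusted p = 0.0251). *COX6A1* was at 489, 484 and 501 FPKM with scramble, at 564, 559.6 and 578 with shRNA1 and at 571, 519 and 593 with shRNA2, with no overlap (0.20 ± 0.041, limma adjusted p = 0.0123). *COX7B* (0.19, limma adjusted p = 0.0103), *COX5A* (0.17, limma adjusted p = 0.0101), *COX7A2L* (0.16, limma adjusted p = 0.0428), *COX4I1* (0.15, limma adjusted p = 0.0351) and *COX8A* (0.14, limma adjusted p = 0.0392) rose too. *COX6B1* was not called (0.14, limma adjusted p = 0.153), and its value in shRNA2 replicate 2, 365 FPKM, was below all scramble libraries. With the length trend removed, *COX7B* alone of the 10 complex IV genes with a length was called (0.15, limma adjusted p = 0.0326), and *COX8A* was at −0.00. In that fit 6.15% of all genes were called higher. *COX7A2* had no length at the deposited ends and was not in that fit, and with lengths as in GENCODE it was not called. The call of *COX7B* rested on its length, 2444 bases here and 446 in GENCODE, and with the latter lengths it was at 0.05 (limma adjusted p = 0.241).

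ATP synthase had 11 of 18 genes higher (0.11 to 0.27) and 0 lower, beside 13.5% of all tested genes called higher. The largest rise of all members was in its peripheral stalk, which holds the catalytic head still while the rotor turns. *ATP5PO*, the oligomycin sensitivity subunit that ties the stalk to the head (chr21:33903453-33915804), was at 204, 195 and 219 FPKM with scramble, at 252, 252 and 249.6 with shRNA1 and at 238, 248 and 252 with shRNA2. All knockdown libraries were above all scramble libraries, with shRNA2 replicate 1 the closest (0.27 ± 0.037 SE, 20.6% higher, limma adjusted p = 0.00323), and with the length trend removed the difference was 0.14 (limma adjusted p = 0.0386). *ATP5PB*, subunit b of the stalk (chr1:111449464-111462773), was at 39.4, 40.4 and 40.3 FPKM with scramble, at 48.1, 48.8 and 48.8 with shRNA1 and at 45.1, 44.9 and 44.5 with shRNA2. It was called at 0.22 ± 0.039 (limma adjusted p = 0.00797) and at 0.18 with the length trend removed (limma adjusted p = 0.018).

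In the rotor, all 3 c-ring genes rose, *ATP5MC1* by 0.23 (limma adjusted p = 0.0125), *ATP5MC2* by 0.18 (limma adjusted p = 0.0459) and *ATP5MC3* by 0.16 (limma adjusted p = 0.00961). *ATP5MC2* kept its call in 1 of 9 fits with a library left out and in 5 of 12 other settings. For *ATP5MC1* these counts were 8 and 9, and for *ATP5MC3* they were 9 and 11. Of these genes, *ATP5MC3* alone was called with the length trend removed. The membrane subunit *ATP5MF* was at 537, 508 and 544 FPKM with scramble, at 613, 618 and 602 with shRNA1 and at 628, 564 and 666 with shRNA2 (0.21 ± 0.049 SE, limma adjusted p = 0.0187). In the F1 head 3 of 5 genes rose, and the abundant *ATP5F1B* did so by 0.11 (limma adjusted p = 0.0288). By part, the medians were 0.16 for the head, 0.18 for the 4 stalk genes and 0.16 for the 9 membrane genes. *ATP5MGL*, the lowest at 7.51 FPKM and a relative of *ATP5MG*, was not called (0.13, limma adjusted p = 0.333). After removal of the length trend, 3 of the 18 ATP synthase genes rose and 0 fell, beside 6.15% of all genes called higher.

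Of the 41 members that rose, 8 were called without each of the 9 libraries in turn: *ATP5F1A*, *ATP5F1C*, *ATP5MC3*, *ATP5MG*, *ATP5PB*, *ATP5PO*, *COX7B* and *SDHB*, of which *ATP5F1A*, *ATP5F1C* and *ATP5MG* were named after their values were seen. Of these 8, *ATP5PB* alone was also called under all 12 other settings. Without scramble replicate 2, 31 of the 41 lost their call, and without scramble replicate 1, 28 did, in fits where higher calls over all genes went from 1690 to 634 and 753.

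Each shRNA was then compared with scramble, and the shRNAs with each other, in a fit of the 3 groups. With shRNA1, 32 members rose and 0 fell (11.7% of all genes were called higher and 7.19% lower), with a median of 0.14. With shRNA2, 37 rose and 0 fell (15.3% of all genes were called higher and 11.4% lower), with a median of 0.16. These comparisons share the scramble libraries. By complex I to V, 12, 2, 4, 3 and 11 genes rose with shRNA1, and 12, 2, 5, 7 and 11 with shRNA2, and no test of the difference between these counts was made. With only the libraries of the groups compared in the fit, 52 members were called with shRNA1 and 19 with shRNA2. The shares of all genes above belong to the fit of 3 groups, not to these fits. The counts of 52 and 19 are therefore not read as a result about the members.

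Directly between the shRNAs, 2 members were higher and 2 lower with shRNA2 (1.92% of all genes were called higher and 4.79% lower), and the members' median difference was −0.00. Values are given for 3 of the 4. *NDUFA9* (chr12:4649114-4694317) was at 5.49, 5.62 and 5.54 FPKM with scramble, at 6.06, 6.01 and 6.03 with shRNA1 and at 6.50, 6.55 and 6.62 with shRNA2, with all 3 groups apart (shRNA2 against shRNA1 0.10 ± 0.0215 SE, limma adjusted p = 0.0313).

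Both stalk subunits *ATP5PD* and *ATP5PB* were lower with shRNA2. *ATP5PD*, subunit d (chr17:75038863-75046969), was at 232, 225 and 235 FPKM with scramble, at 247, 258 and 250.5 with shRNA1 and at 227, 219 and 235 with shRNA2. Against scramble it rose with shRNA1 (0.13, limma adjusted p = 0.044) and was at −0.02 with shRNA2 (limma adjusted p = 0.645), and between the shRNAs it differed by −0.15 ± 0.035 SE (limma adjusted p = 0.0463). *ATP5PB* was above scramble with both and less so with shRNA2 (−0.11 ± 0.023, limma adjusted p = 0.0273). All 4 adjusted p-values lay near the threshold. The count went to 0 without scramble replicate 3, without any 1 of the shRNA1 libraries, without shRNA2 replicate 1, and with only the 6 knockdown libraries in the fit, and to 1 without scramble replicate 2 or shRNA2 replicate 3.

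**Figure D5:**
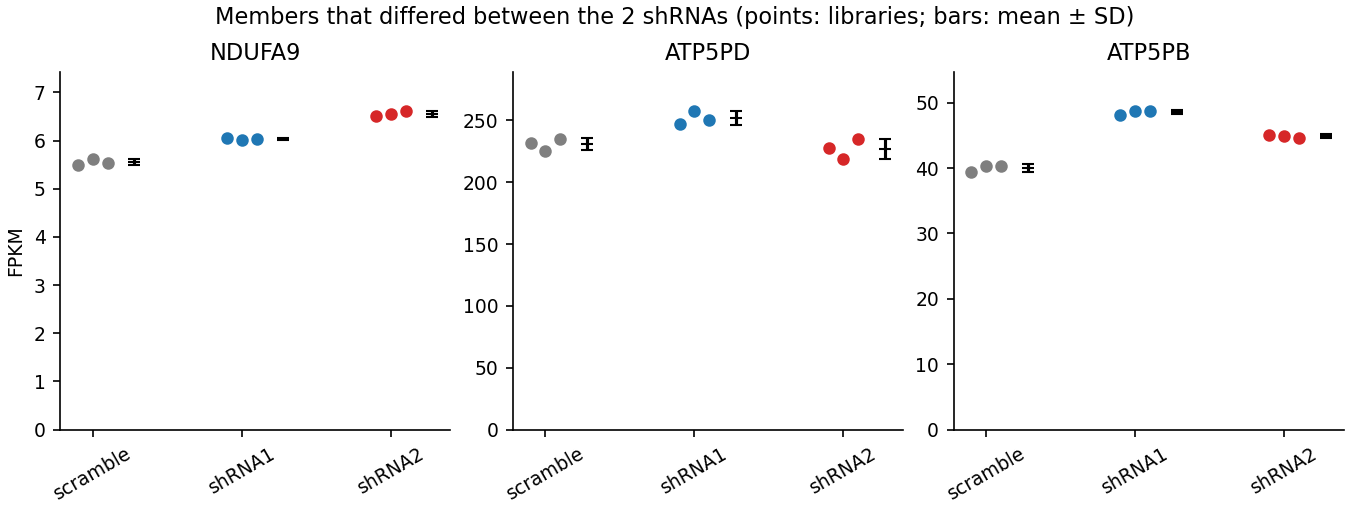
FPKM of 3 members that differed between the shRNAs, 1 point per library and the mean ± SD (n = 3) beside each group, on axes that start at 0. *NDUFA9* is higher with shRNA2 than with shRNA1, and *ATP5PD* and *ATP5PB* lower.

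Single RefSeq transcripts of the members were tested as well. Of 141 member transcripts of 80 genes, 1 rose, the transcript of *ATP5PO* (0.27, limma adjusted p = 0.0456), and 0 fell, against 0.516% of all 19780 transcripts higher and 0.586% lower. Over all transcripts tested, 3549 had an unadjusted p under 0.05. The members' median was 0.15, with 118 values above and 23 below 0. Splits between transcripts of a gene were unsteady among replicates. For *COX4I1*, a minor transcript was at 0.0396, 18.6 and 33.6 FPKM in the 3 scramble libraries and at 27.8 to 61.5 in the knockdown libraries (limma adjusted p = 0.253). This transcript was named after its values were seen.

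Genes for factors that assemble these complexes were called in the same direction. In this fit 13.5% of all tested genes were called higher and 7.1% lower. Of 16 assembly factors of complex I, 6 rose and 0 fell, with a median of 0.12, led by *NDUFAF2* (0.22, limma adjusted p = 0.0477), *FOXRED1* (0.20, limma adjusted p = 0.00266) and *TMEM126B* (0.20, limma adjusted p = 0.0487). *FOXRED1* was at 21.0, 20.4 and 20.7 FPKM with scramble and at 23.5 to 25.0 in all knockdown libraries. Of 4 factors of complex II, 2 rose, *SDHAF3* (0.26, limma adjusted p = 0.00806) and *SDHAF1* (0.23, limma adjusted p = 0.00909), which help to mature SDHB. Of 9 factors of complex III, 5 rose with a median of 0.18, including *UQCC5* (0.24, limma adjusted p = 0.00578), *UQCC3* (0.22, limma adjusted p = 0.00508) and the AAA protein *BCS1L* (0.18, limma adjusted p = 0.0229). Of 22 factors of complex IV, 6 rose with a median of 0.10, among them *COA3*, which binds newly made COX1 (0.25, limma adjusted p = 0.00498), *COA4* (0.24, limma adjusted p = 0.00665) and *COA6* (0.23, limma adjusted p = 0.00927). Of 6 complex V factors 2 rose, the ATP synthase inhibitor *ATP5IF1* (0.21, limma adjusted p = 0.0112) and *TMEM70* (0.16, limma adjusted p = 0.0159). With the length trend removed, 2, 0, 3, 3 and 0 of these lists' genes were called higher and 1, of complex IV, was called lower. The shares of all genes were then 6.15% higher and 5.71% lower.

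Cytochrome c itself (*CYCS*) was at 31.4, 32.9 and 33.9 FPKM with scramble, at 37.9, 38.0 and 36.9 with shRNA1 and at 34.6, 38.4 and 35.4 with shRNA2. It rose by 0.16 (limma adjusted p = 0.0259), and by 0.20 with the length trend removed (limma adjusted p = 0.00938). *COXFA4*, the complex IV subunit long known as NDUFA4 and outside the symbol rule, rose by 0.19 (limma adjusted p = 0.0177). Among 13 citric acid cycle genes 3 rose, *SUCLG1* (0.16, limma adjusted p = 0.0222), *IDH3B* (0.12, limma adjusted p = 0.0286) and *FH* (0.11, limma adjusted p = 0.0417), and 0 fell, with a median of 0.06. The share of all tested genes called higher was 13.5%, and 13 genes are few to set against it. *IDH3B* fell when only protein-coding accessions were summed (−0.19, limma adjusted p = 0.0132).

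Of 12 listed transcriptional regulators of mitochondrial genes, 10 were tested, 0 rose and 1 fell with knockdown, with a median of 0.04. Over all tested genes, 13.5% were called higher and 7.1% lower, so 1 fall among 10 is near that share. *YY1* was at 42.7, 43.5 and 42.4 FPKM with scramble, at 39.4, 39.6 and 39.1 with shRNA1 and at 40.1, 42.1 and 40.1 with shRNA2 (−0.09 ± 0.028 SE, limma adjusted p = 0.0469, and −0.03 with the length trend removed). The coactivator *PPARGC1A* was at 0 in all but 2 libraries and at 0.0126 FPKM at most. *NRF1*, named after its values were seen, stood at 5.57 FPKM with scramble and at 5.56 and 5.57 with the shRNAs.

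Genes of other large complexes were also called higher, beside 13.5% of all tested genes. Of 77 mitochondrial ribosomal protein genes, 58 rose and 0 fell (median 0.17). Of 85 cytosolic ribosomal protein genes, 65 rose and 0 fell (median 0.19), and of 37 proteasome subunit genes 20 rose and 0 fell (median 0.13). With the length trend removed, 19, 15 and 5 of these rose, with medians of 0.08, 0.08 and 0.04, and 6.15% of all genes were called higher. The differences between these sets and the respiratory chain were not tested, and the rise cannot be called particular to the respiratory chain.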

How the data were processed

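Stranded mRNA libraries were aligned by the authors with STAR, and Cufflinks gave the FPKM. The deposited FPKM tables list 83497 RefSeq entries on loci of hg38, per the labels, although the methods name mm10. Here 72645 of 73240 accessions were matched to genes (the others held at most 0.431% of FPKM) and FPKM were summed per gene. The 42 genes with an unusable entry, none of them a member, were left out. Genes whose mean reached 1 FPKM were tested with limma 3.58.1 (R 4.3.3) on log2(FPKM + 1), a scale that understates changes of low genes, with p-values adjusted by Benjamini-Hochberg and called below 0.05. Knockdown against scramble was a fit of 2 groups, and shRNA comparisons a fit of 3. No count model was run, since the tables hold no counts, and the number of libraries limits the precision.

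The length column of the tables was empty, so lengths came from GENCODE v29 transcripts, moved to the deposited ends (95.7% of tested genes), and each library's lowess trend (span 0.3) was removed as an alternative. Other alternatives were pseudocounts of 0.1 and 0.01, no filter or 5 FPKM, centring, quantile normalization, the replicate number as a block, each library left out, primary chromosomes or protein-coding accessions only, and, chosen after seeing the data, unmoved GENCODE lengths. The fits and the length correction were run on simulated data. The changes planted there for the fits exceeded the largest change of a member. Finding changes of the members' size was therefore not tested. Named genes were, in each complex, up to 4 largest called rises and falls and the highest and lowest level, members called between the shRNAs, paralogue sets, *SDH* genes, *FZD6* and up to 3 called rises and falls of each other list. The members and lists were chosen with earlier results of these data known. Certain genes, although part of the fits and counts, are not reported here by name. Python 3.11.15, pandas 2.3.3 and matplotlib 3.10.9 were used for tables and figures.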

Additional observations from a re-analysis of the deposited data

Results flagged for a closer look

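In the 6 knockdown libraries together, 37 measures were checked for a library far from the others, and 4 stood out, where chance gives about 1 in 20. The rank correlation of gene-centred log2 values with transcript length in shRNA2 replicate 2 was 0.227, against −0.447 to −0.212 in the other knockdown libraries. *NDUFS4* was at 47.2 FPKM in shRNA1 replicate 1, above the others. *ATP5PO* was at 238 FPKM in shRNA2 replicate 1, below the others, and *COX7A2L* was at 128 FPKM in the same library, above the others. The 6 libraries hold 2 shRNA groups of 3, and groups of 3 were not checked.

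The 2 shRNAs differed, shRNA2 against shRNA1, in 3 named members and in *FZD6*: *ATP5PB* by −0.11, *ATP5PD* by −0.15, *NDUFA9* by 0.10 and *FZD6* by −0.25 (log2 fold changes, limma adjusted p = 0.0273, 0.0463, 0.0313 and 0.0273).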

How the results depend on the processing

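With quantile normalization, 20 members were called with knockdown, 13 with shRNA1 and 0 by the study's criteria, and the median was 0.10. With the length trend removed, the counts were 7 with knockdown, 7 with shRNA1, 13 with shRNA2 and 0 by the study's criteria (median 0.0375), with *SDHC* at −0.0122 and *COX8A* at −0.0039. Of the 77 members with that correction, 6 were higher and 1 lower with shRNA1, and 11 were higher and 2 lower with shRNA2. Over all 11967 genes, 705 were higher and 728 lower with shRNA1, and 1384 higher and 1511 lower with shRNA2. Lengths as in GENCODE gave 9 with knockdown, 7 with shRNA1, 14 with shRNA2 and 2 by the study's criteria (median 0.0451). Median centring gave 20 with shRNA1. With only the groups compared in the fit, the counts were 52 with shRNA1, 19 with shRNA2 and 0 between the shRNAs, given without the share of all genes in those fits. Protein-coding accessions alone gave 2 between the shRNAs and −0.19 for *IDH3B*.

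Leaving out 1 library at a time gave 10 to 57 members with knockdown, 6 to 49 with shRNA1, 14 to 55 with shRNA2, 0 to 3 between the shRNAs and 0 to 3 by the study's criteria, with the median between 0.14 and 0.17. Same-numbered libraries did not deviate together (correlations −0.07 to 0.11), so the numbers were not taken as pairs. With the replicate number as a block, 39 members were called with knockdown and 2 between the shRNAs. With the block and the length trend removed, 4 were called with knockdown, 7 with shRNA1, 10 with shRNA2 and 0 by the study's criteria, with a median of 0.0375, *SDHC* at −0.0122 and *COX8A* at −0.0039. The causes of these changes were not tested. Of the counts, medians and *FZD6* values under the alternatives, 102 stayed close to the reported value and 48 moved. A count was taken as close within a factor of 1.5, and a median within 0.039, of the reported one. *FZD6* was taken as close when its direction and call held. For the named genes, 863 values kept the call or its absence, 303 lost the call, 2 gained it and 5 turned from a called change. A turn of direction without a call in either fit is counted among the 863. The 3 libraries per group and the unknown read counts limit what changes of this size can show.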
